A study of Homo sapiens with 6 samples.

Results

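Sterol metabolism was examined through 28 genes that make cholesterol, sense it, take it up and move it within the cell. Each gene was read from the probe set that carries its symbol alone, or from the brightest such probe set where there were several, and 25 of the 28 genes were measured in this way among 33578 genes in all. FDFT1, NPC2 and MYLIP were not analysed here, since no probe set with a single listed symbol named them. The arrays came from KPL4, an established human inflammatory breast cancer cell line. The series holds 6 Affymetrix arrays, 3 from control cells and 3 from cells with a CRISPR/Cas9 knockout of ERβ, the estrogen receptor encoded by ESR2. All cells were grown in Ham's F12 medium with 7% fetal bovine serum, 5 µg/mL insulin and 1 µg/mL hydrocortisone, and no treatment was given. The labels speak of biological replicates but name no separate cultures, do not say if the knockout line is 1 clone, and do not describe how control cells were handled. All p-values below rest on the spread among these 6 samples, part of which may be technical.

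Cholesterol is built from acetyl-CoA through mevalonate, which is turned into isoprenoid units, joined to squalene, closed to the ring of lanosterol and then trimmed to cholesterol by a series of oxidations and reductions. When membranes of the endoplasmic reticulum run short of cholesterol, the escort protein SCAP carries the transcription factor SREBP2 to the Golgi, where it is cut free and then switches on most enzymes of the pathway. When sterol is plentiful, INSIG proteins hold SCAP back. Serum in the medium supplies cholesterol in lipoproteins. This cholesterol leaves the lysosome through the NPC proteins and is stored as esters made by SOAT1.

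The arrays of both groups had nearly the same overall level, with a median over the 33578 genes of 5.04 to 5.10 on the log2 scale. ESR2 had a log2 signal of 3.99, 3.69 and 4.16 in control and 3.90, 4.08 and 4.01 in knockout cells, below that median, so the array did not check the label of either group. Epithelial markers were bright, from 7.81 for CDH1 to 17.49 for EPCAM as a mean of 6 arrays. Of the 5 measured, KRT19 rose (log2 difference 1.25, limma, Benjamini-Hochberg adjusted p = 0.00010) and 4 did not pass, with KRT8 at -0.24 and KRT18 at -0.27, both lower on every knockout array. The part of this in the results below was not tested. Of 10 measured markers of leukocytes, endothelium, fibroblasts, adipocytes and hepatocytes, 0 passed the test (limma, Benjamini-Hochberg adjusted p under 0.05), and differences ran from -0.33 to 0.22. An unadjusted p under 0.05 was found for 1 of these 10, beside 20.3% of all genes. The means of these 10 ran from 4.33 for APOA1 to 7.87 for COL1A1, and 4 were brighter than the median gene. COL1A1, read from a probe set with no gene identifier, was thus about as bright as CDH1. In bulk RNA, a change in the share of cells that express a gene and a change in RNA per cell cannot be told apart.

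Knockout cells had more mRNA for 5 sterol genes and less for 1, and the 6 are all enzymes of synthesis. Such enzymes were most of the measured genes, 7 of the early and 10 of the late steps. The rest were 5 regulators and 3 genes of lysosomal export, transfer and storage, too few to set synthesis apart. Of the 25 measured genes, TM7SF2, CYP51A1, IDI1, HMGCS1 and MSMO1 rose, SQLE fell and 19 did not pass the test. That is 24.0% of the genes, beside 8.01% of all 33578 genes tested and 14.8% of the 16789 genes brighter than the median. Over all genes 4.81% rose and 3.21% fell. The difference was above 0 for 21 of the 25 genes, or 84.0%, whereas it was above 0 for 54.0% of all genes and 57.8% of the genes brighter than the median. The median log2 difference, knockout minus control, was 0.17 over the 25 genes, 0.02 over all genes and 0.06 over the genes brighter than the median. Knockout and control arrays did not overlap for 10 of the 25, with 8 higher and 2 lower in knockout cells. That is 40% of them, beside 25.3% of all genes and 37.7% of the genes brighter than the median, a share close to that of the sterol genes. Of the 25 genes, only LPIN1, as read from the probe set used here, was dimmer than the median gene as a mean of 6 arrays.

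**Figure D1:**
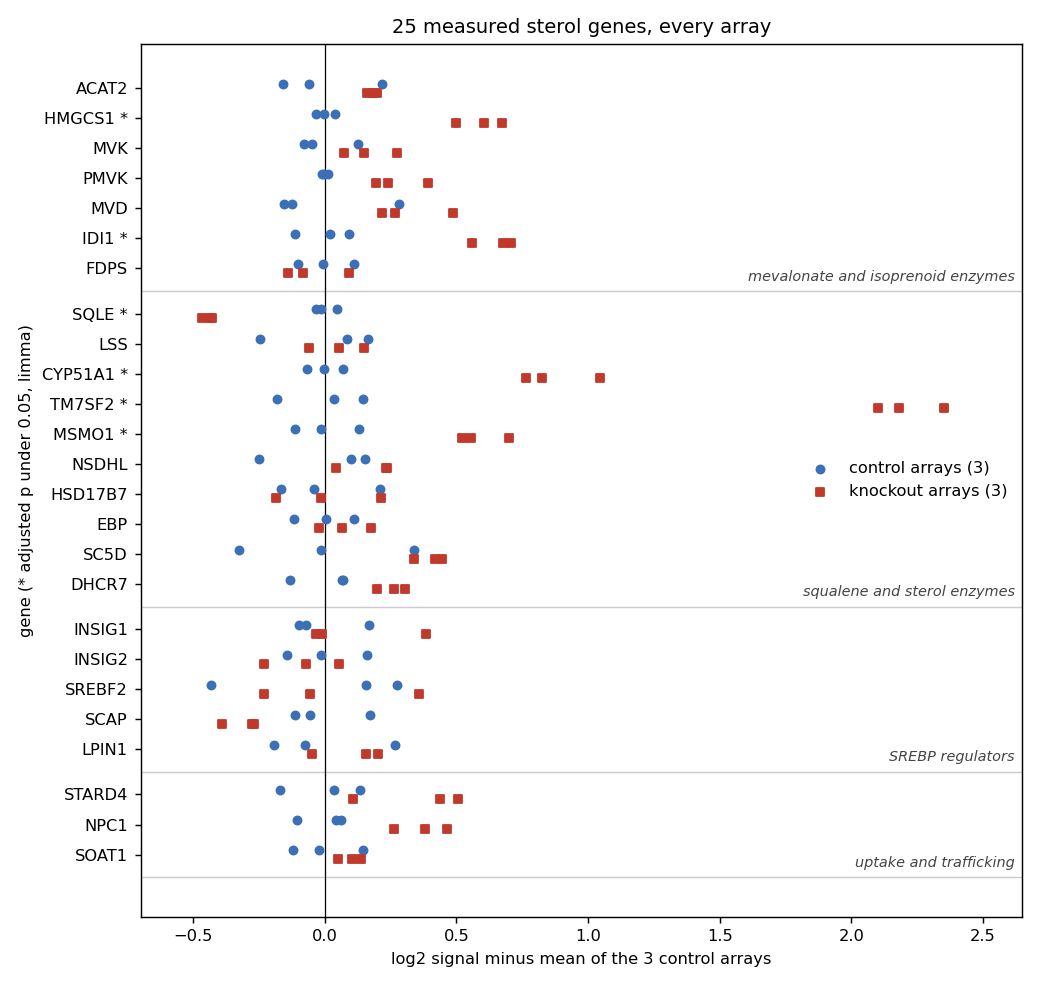
Log2 signal of each of the 25 measured sterol genes on every array, minus the mean of the 3 control arrays (x axis, log2 units), with genes on the y axis grouped by step and an asterisk for an adjusted p under 0.05. TM7SF2 lies farthest to the right at 2.21 on average, SQLE is to the left at -0.44, and the knockout points of SREBF2 and INSIG1 overlap their control points.

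The early steps, which make and use mevalonate, held 2 of the 5 rises. Of 7 enzymes measured, HMGCS1 and IDI1 rose, 0 fell and 5 did not pass, with 3 of the 7 at an unadjusted p under 0.05, beside 20.3% of all genes and 31.7% of the genes brighter than the median at that level. The median difference of the 7 was 0.28. HMGCS1, the synthase that makes the precursor of mevalonate, had a log2 signal of 11.42, 11.49 and 11.45 in control and 12.12, 12.06 and 11.95 in knockout cells. Every knockout array was above every control array. HMGCS1 rose 1.51-fold (log2 difference 0.59, SE 0.12, adjusted p = 0.011). IDI1, which isomerises the basic isoprenoid unit, had 12.15, 11.95 and 12.08 in control and 12.77, 12.74 and 12.62 in knockout cells. Its groups did not overlap either, and it rose 1.57-fold (log2 difference 0.65, SE 0.12, adjusted p = 0.0080). Leaving out knockout replicate 1 or knockout replicate 2 ended the HMGCS1 call (adjusted p = 0.052 in both cases). IDI1 kept its call without any 1 of the 6 arrays.

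The other enzymes of the early steps did not pass. ACAT2, the thiolase that joins acetyl-CoA units, differed by 0.18 (adjusted p = 0.54, 95% interval -0.12 to 0.48). MVK, mevalonate kinase, differed by 0.17 (adjusted p = 0.55), and MVD, the decarboxylase that yields the isoprenoid unit, by 0.32 (adjusted p = 0.27). PMVK, phosphomevalonate kinase, had 7.06, 7.04 and 7.05 in control and 7.29, 7.44 and 7.25 in knockout cells. These groups were apart, but the difference of 0.28 did not pass (adjusted p = 0.23). FDPS, which joins isoprenoid units to farnesyl diphosphate, was the exception in sign, at -0.04 (95% interval -0.33 to 0.24, adjusted p = 0.90).

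The later steps, from squalene to cholesterol, held the largest change of the 25 genes and the single fall. Of 10 enzymes measured, TM7SF2, CYP51A1 and MSMO1 rose, SQLE fell and 6 did not pass. The share called was 40%, beside 8.01% of all genes and 14.8% of the genes brighter than the median. An unadjusted limma p under 0.05 was found for 5 of the 10 (20.3% of all genes and 31.7% of bright genes). The median difference was 0.21. TM7SF2, a sterol reductase, had a log2 signal of 7.71, 7.82 and 7.49 in control and 10.03, 9.77 and 9.85 in knockout cells. The lowest knockout array was well above the highest control array. TM7SF2 rose 4.63-fold (log2 difference 2.21, SE 0.14, adjusted p = 4.1e-06), a size of difference at the 99.8th percentile of all genes. CYP51A1, the demethylase of lanosterol, acts just before TM7SF2 and had 12.51, 12.58 and 12.44 in control and 13.27, 13.33 and 13.55 in knockout cells. Again no arrays of the groups overlapped, and CYP51A1 rose 1.84-fold (log2 difference 0.88, SE 0.13, adjusted p = 0.0016). MSMO1, a methyl sterol oxidase that acts after TM7SF2, had 13.95, 14.10 and 13.86 in control and 14.53, 14.49 and 14.67 in knockout cells. It was the brightest of the 25 and rose 1.51-fold (log2 difference 0.59, SE 0.13, adjusted p = 0.015).

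SQLE, squalene epoxidase, a rate-limiting enzyme of the late pathway, went the other way. It had 13.53, 13.59 and 13.51 in control and 13.11, 13.08 and 13.11 in knockout cells, with every knockout array below every control array. SQLE fell 1.36-fold (log2 difference -0.44, SE 0.12, adjusted p = 0.042). Leaving out each array in turn ended its call in all 6 cases (adjusted p = 0.077 to 0.14), as did the replicate number as a block (adjusted p = 0.089). Leaving out control replicate 1, control replicate 3 or knockout replicate 3 ended the MSMO1 call (adjusted p = 0.054, 0.055 and 0.064). TM7SF2 and CYP51A1 were called in the main fit and in all 16 alternatives.

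**Figure D2:**
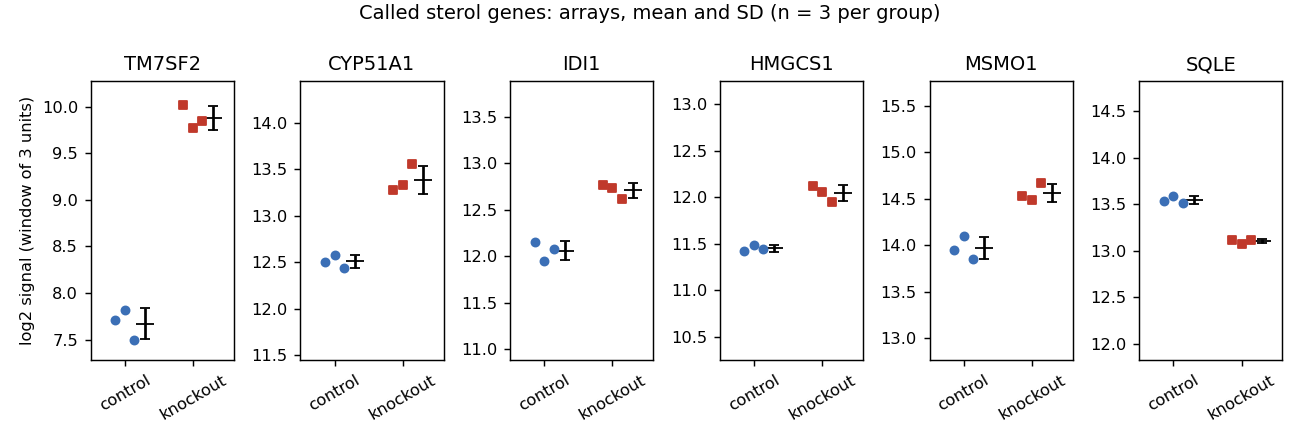
Log2 signal (y axis, a window of 3 units in each panel) of the 6 called sterol genes on the control and knockout arrays (points), with mean and SD of each group beside them (n = 3). Knockout points lie above control points in the panels of TM7SF2, CYP51A1, IDI1, HMGCS1 and MSMO1, and below them in that of SQLE.

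The other late enzymes did not pass. LSS, which closes the sterol ring, differed by 0.05 (95% interval -0.27 to 0.36). HSD17B7, a sterol ketoreductase, differed by 0.0034 (95% interval -0.33 to 0.34), and EBP, a sterol isomerase, by 0.07 (95% interval -0.21 to 0.35). NSDHL, the dehydrogenase that works with MSMO1, differed by 0.17 (95% interval -0.15 to 0.49). SC5D, the sterol desaturase, had 10.18, 10.49 and 10.85 in control and 10.95, 10.85 and 10.93 in knockout cells, a difference of 0.40 (adjusted p = 0.20). DHCR7, the reductase that completes cholesterol in one branch of the pathway, had 12.17, 11.97 and 12.17 in control and 12.41, 12.31 and 12.37 in knockout cells. DHCR7 was higher on every knockout array, but its difference of 0.26 did not pass (adjusted p = 0.29).

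Of the 5 genes that regulate the pathway, 0 passed the test (limma), and their median difference was 0.02. Only 1 of the 5 had an unadjusted p under 0.05, beside 20.3% of all genes and 31.7% of the genes brighter than the median. SREBF2, which encodes SREBP2, had a log2 signal of 7.15, 7.85 and 7.74 in control and 7.94, 7.35 and 7.52 in knockout cells. The groups were interleaved, and the difference was 0.02 with a wide 95% interval of -0.43 to 0.48. INSIG1, an anchor of SCAP and itself a target of SREBP2, had 9.28, 9.55 and 9.31 in control and 9.35, 9.37 and 9.77 in knockout cells. Its difference of 0.11 (95% interval -0.22 to 0.45) was within the spread of the arrays. INSIG2, its paralog, differed by -0.08 (95% interval -0.39 to 0.22). SCAP had 11.46, 11.69 and 11.40 in control and 11.25, 11.24 and 11.13 in knockout cells. SCAP was lower on every knockout array, by -0.31 (adjusted p = 0.20), and a second probe set listed under its symbol, with no gene identifier, differed by -0.15. LPIN1, a phosphatidate phosphatase known in mouse to restrain SREBP activity, was read from a dim probe set with no gene identifier (means 3.98 and 4.08). A brighter probe set that lists LPIN1 beside another symbol was not used. The difference of 0.10 was not shown to rise above background, and the level of LPIN1 itself is not given by this probe set.

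Genes of lysosomal export, transfer and storage did not pass either, with 0 of 3 measured called (limma). NPC2 and MYLIP were not measured, and none of the 3 acts in uptake at the cell surface. An unadjusted p under 0.05 was found for 2 of the 3 (20.3% of all genes and 31.7% of bright genes). All 3 differences were above 0. NPC1, the lysosomal cholesterol exporter, had 10.56, 10.39 and 10.54 in control and 10.76, 10.88 and 10.96 in knockout cells. Its groups did not overlap, and the difference of 0.37 (SE 0.13, adjusted p = 0.11) passed when only genes above the median brightness (adjusted p = 0.047) or only protein-coding genes (adjusted p = 0.050) were tested. STARD4, a cytosolic sterol carrier, had 6.91, 6.61 and 6.81 in control and 7.28, 7.21 and 6.88 in knockout cells, a difference of 0.35 (adjusted p = 0.21). SOAT1, which esterifies cholesterol for storage, differed by 0.10 (95% interval -0.18 to 0.38).

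Promoters of the sterol genes were read for the letters of known elements, because the 5 rises lie in a pathway that SREBP2 controls together with the CCAAT-binding factor NF-Y. The windows were the 250 bases before each RefSeq gene start (build GRCh38.p14), and 25 of the 28 genes had at least 1, with 34 windows in all. ACAT2, FDFT1 and SQLE were not used here. These 25 genes with a window are therefore not the 25 measured genes. They include NPC2 and MYLIP, which were not measured, and lack ACAT2 and SQLE, which were. The windows below are those of SREBF2 (chr22:41832855-41833104, + strand), TM7SF2 (chr11:65111622-65111871, + strand), CYP51A1 (chr7:92134478-92134727, - strand), MSMO1 (chr4:165327419-165327668, + strand), the first listed start of HMGCS1 (chr5:43313413-43313662, - strand) and the first listed start of IDI1 (chr10:1056705-1056954, - strand). SREBF2 is shown because it held the consensus element, and the other 5 because they rose. Each reads 5′ to 3′ along the gene, with matches to the sterol regulatory element TCACNCCAC and the CCAAT box, on either strand, in capitals.
SREBF2: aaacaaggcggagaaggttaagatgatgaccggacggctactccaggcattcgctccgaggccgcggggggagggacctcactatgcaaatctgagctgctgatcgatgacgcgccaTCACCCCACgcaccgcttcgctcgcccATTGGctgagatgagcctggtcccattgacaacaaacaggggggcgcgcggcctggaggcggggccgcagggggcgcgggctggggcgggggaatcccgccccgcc
TM7SF2: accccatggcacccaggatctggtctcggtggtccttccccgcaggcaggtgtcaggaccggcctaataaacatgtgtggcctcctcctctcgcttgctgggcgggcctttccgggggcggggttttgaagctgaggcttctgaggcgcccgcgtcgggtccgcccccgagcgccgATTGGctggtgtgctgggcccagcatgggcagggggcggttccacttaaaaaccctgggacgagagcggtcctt
CYP51A1: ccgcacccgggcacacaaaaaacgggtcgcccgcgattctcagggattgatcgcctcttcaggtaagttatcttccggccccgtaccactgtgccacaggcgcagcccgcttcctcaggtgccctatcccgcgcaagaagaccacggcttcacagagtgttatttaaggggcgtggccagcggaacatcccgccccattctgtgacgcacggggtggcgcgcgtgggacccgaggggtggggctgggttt
MSMO1: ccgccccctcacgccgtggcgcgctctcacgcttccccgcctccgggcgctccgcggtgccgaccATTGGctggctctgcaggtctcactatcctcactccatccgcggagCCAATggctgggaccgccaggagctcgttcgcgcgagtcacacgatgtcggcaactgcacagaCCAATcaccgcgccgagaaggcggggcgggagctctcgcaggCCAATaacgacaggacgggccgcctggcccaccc
HMGCS1: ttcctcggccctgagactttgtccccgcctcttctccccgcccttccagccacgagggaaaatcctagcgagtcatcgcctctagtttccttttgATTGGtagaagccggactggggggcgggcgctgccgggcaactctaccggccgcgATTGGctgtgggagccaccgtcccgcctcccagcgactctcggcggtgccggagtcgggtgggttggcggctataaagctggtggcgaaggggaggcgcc
IDI1: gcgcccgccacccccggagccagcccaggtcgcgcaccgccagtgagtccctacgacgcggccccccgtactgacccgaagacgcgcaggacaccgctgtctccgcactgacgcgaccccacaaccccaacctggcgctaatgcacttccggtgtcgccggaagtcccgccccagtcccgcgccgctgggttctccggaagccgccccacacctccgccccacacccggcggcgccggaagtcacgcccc
The sterol regulatory element TCACNCCAC was found, on either strand, in the window of SREBF2 alone among these 25 genes, beginning 133 bases before its start, and in 1.09% of 27305 genes with a window. None of the 5 genes that rose held those exact letters in this window, which says nothing of the factor, since working elements often depart from the consensus. The CCAAT box was held by 19 of the 25 genes (76.0%), beside 37.0% of all 27305 genes and 40.2% of 15843 protein-coding genes. Among the 5 that rose it was found in HMGCS1, IDI1, TM7SF2 and MSMO1 and not in CYP51A1. MSMO1 had 4 matches to it in the window shown, on both strands. The letters CCAAT and their reverse complement overlap in CCAATTGG, which occurs before 1 of the starts of IDI1 and before that of NSDHL, which did not pass. The matches of IDI1 lie before its other 2 starts, not in the window shown. The GC box GGGCGG was held by 24 of the 25 genes, beside 62.1% of protein-coding genes, and the E-box CACGTG, which reads the same on both strands, by 3 (SC5D, INSIG1 and SCAP), beside 9.73%. The full palindrome of the estrogen response element, GGTCA and TGACC on either side of 3 bases of any kind, was found in 0 of the 25 genes and in 14 of the 27305. A match is a description of the letters, not a shown binding site.

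A further 66 genes around the pathway were listed, and 59 of them were measured. Of these, 4 rose, 4 fell and 51 did not pass, or 13.6% called, a share close to the 14.8% of genes brighter than the median. Their median difference was 0.07. Of 15 other enzymes of sterols and isoprenoids, only PGGT1B passed. It encodes a subunit of the enzyme that attaches geranylgeranyl groups to proteins and had 7.86, 8.44 and 8.48 in control and 9.47, 9.54 and 9.51 in knockout cells, a 2.37-fold rise (adjusted p = 0.00091). LBR, which can carry out the same sterol reduction as TM7SF2, had 13.05, 12.95 and 12.79 in control and 12.92, 12.78 and 12.79 in knockout cells. Its difference of -0.10 (95% interval -0.38 to 0.18) lay within the spread of the arrays. ERG28, known from yeast as a scaffold of the late sterol enzymes and the brightest of that list, differed by 0.20 (adjusted p = 0.40).

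Among genes that process SREBP or degrade sterol enzymes, 1 of 15 rose and 2 fell. That is 20% called, beside 8.01% of all genes and 14.8% of the genes brighter than the median, as 14 of the 15 were. SREBF1, which encodes SREBP1, a relative of SREBP2 that acts mainly on fatty acid synthesis, had 11.33, 11.61 and 11.63 in control and 11.90, 12.21 and 12.72 in knockout cells. The knockout arrays were spread over a wider range than the control arrays. SREBF1 rose 1.68-fold (adjusted p = 0.039), a call that was lost when control replicate 1, 2 or 3 or knockout replicate 2 or 3 was left out (adjusted p = 0.064 to 0.13), after repeated quantile normalization (adjusted p = 0.071) and with array medians set equal (adjusted p = 0.055). RNF139, a sterol-sensing ubiquitin ligase, had 14.19, 14.15 and 14.20 in control and 13.49, 13.71 and 13.50 in knockout cells, a 1.53-fold fall (adjusted p = 0.011). MARCHF6, the ubiquitin ligase that marks squalene epoxidase for degradation, had 14.82, 14.78 and 14.80 in control and 14.30, 14.20 and 14.13 in knockout cells. MARCHF6 fell by 0.59 on the log2 scale (adjusted p = 0.011), so transcripts of both SQLE and its ligase were lower. The RNF139 call was lost without knockout replicate 1 (adjusted p = 0.052) and the MARCHF6 call without knockout replicate 2 (adjusted p = 0.050081). AUP1, an adaptor of protein degradation at the endoplasmic reticulum and the brightest gene of the list, differed by -0.06 (95% interval -0.36 to 0.23).

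In the list of liver X receptor, efflux and oxysterol genes, 1 of 11 rose and 0 fell, with 4 of the 11 at an unadjusted p under 0.05, beside the 20.3% of all genes and 31.7% of bright genes given above. ABCA1, the transporter that exports cholesterol to apolipoproteins, had 6.83, 7.42 and 6.99 in control and 7.93, 8.06 and 8.38 in knockout cells. All knockout arrays were above all control arrays, and ABCA1 rose 2.07-fold (adjusted p = 0.0039). ABCG1, another sterol exporter, differed by 0.27 (adjusted p = 0.30). OSBP, a sterol transfer protein and the brightest of the list, differed by 0.38 (adjusted p = 0.091). Of 18 genes of uptake, lysosome and transfer, 1 rose and 2 fell. That is 16.7% called, a share close to the 14.8% of bright genes (8.01% of all genes). LIMA1, an actin-binding protein that takes part in intestinal cholesterol uptake, rose 1.59-fold (adjusted p = 0.0071). CAV1, caveolin, a cholesterol-binding protein of the plasma membrane, had 10.65, 10.68 and 10.74 in control and 9.85, 9.77 and 9.75 in knockout cells and fell 1.87-fold (adjusted p = 0.00073). LAMP1, a lysosomal membrane protein, had 12.76, 12.68 and 12.94 in control and 11.62, 11.28 and 11.33 in knockout cells and fell 2.61-fold (adjusted p = 0.00012). SCARB1, the receptor for high-density lipoprotein, differed by 0.01 (95% interval -0.30 to 0.31). STARD3, a late endosomal sterol carrier and the brightest of the list, differed by 0.18 (adjusted p = 0.51), at values above 16 that may be stretched in the deposited scale.

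**Figure D3:**
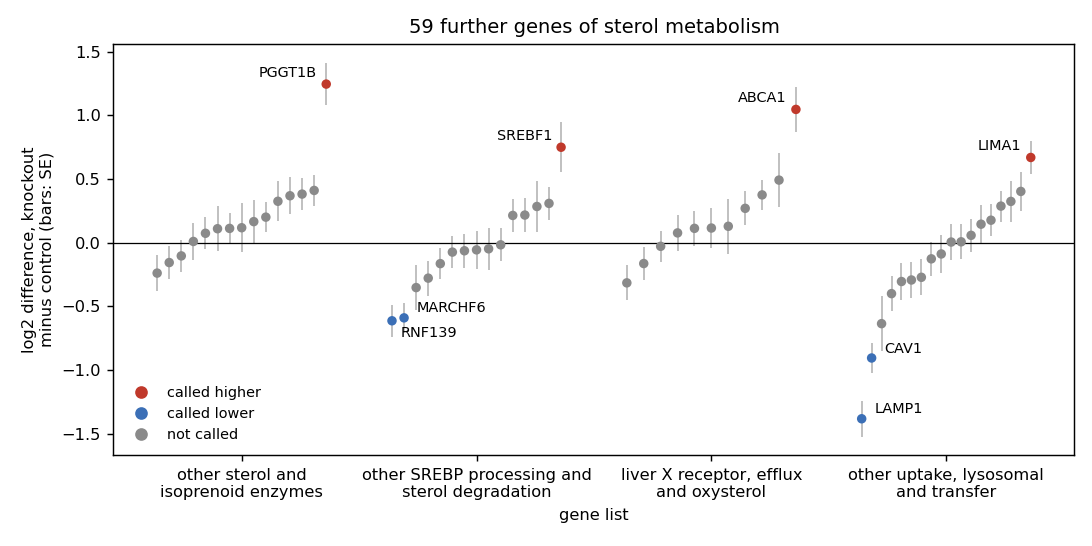
Log2 difference, knockout minus control (y axis, bars show SE), of 59 further sterol genes in 4 lists (x axis), each ordered by difference. Named points passed the test: PGGT1B, SREBF1, ABCA1 and LIMA1 are above 0, and RNF139, MARCHF6, CAV1 and LAMP1 are below.

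Some of these genes lie where chromosomal neighbours shifted too. Neighbours were up to 10 bright protein-coding genes on each side in RefSeq order. As a background for the counts below, 14.8% of the 16789 genes brighter than the median were called, 1494 higher and 995 lower. TM7SF2 on chromosome 11 stood apart from its 20 neighbours, whose median difference was 0.11, with the nearest genes VPS51 at -0.18 and ZNHIT2 at 0.10. CYP51A1 on chromosome 7 differed by 0.88 beside a neighbour median of 0.07, with AKAP9 at 0.52 and ANKIB1 at 0.10 next to it. Its 20 neighbours ran from -1.96 to 1.08, with 5 called lower and 1, FZD1 at 1.08, called higher. IDI1 differed by 0.65 beside a median of 0.13 over 15 neighbours on chromosome 10, with GTPBP4 at 0.03 and WDR37 at 0.53 next to it. MSMO1 differed by 0.59 beside 0.12 on chromosome 4, where 5 of 20 neighbours were called higher and 2 lower. The genes on its 2 sides went in opposite directions, GK3 at -0.16 and CPE at 1.21, and GK3 was not called. For HMGCS1 on chromosome 5 the neighbour median was below 0, at -0.24, with ZNF131 at -0.12 and CCL28 at 0.43 next to it. Among the 20 neighbours of HMGCS1, 3 were called lower and 1 higher.

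SQLE was, of the 6 called genes, the one whose difference lay nearest to that of its neighbours. Of its 20 neighbours on chromosome 8, 8 were called lower and 1 higher, and their median difference was -0.22. Of the genes next to it, WASHC5 differed by -0.9998, and ZNF572 on the other side differed by -0.07 and was not called. Relative to that median, the difference of SQLE was -0.22 in place of -0.44. RNF139 lies near SQLE and shares part of its neighbourhood, and 8 of its 20 neighbours were called lower as well. MARCHF6 on chromosome 5 differed by -0.59 beside a neighbour median of -0.23, and the genes next to it, CMBL at -1.78 and CTNND2 at -1.51, were both called lower, whereas 4 of its 20 neighbours were called lower and 4 higher. LAMP1 on chromosome 13 differed by -1.38, and 15 of its 18 neighbours were called lower, with a median of -1.14. PGGT1B and STARD4 lie on chromosome 5, where 10 and 9 of 20 neighbours were called higher, with medians of 0.67 and 0.60. For CAV1, ABCA1, SREBF1 and LIMA1 the neighbour medians were -0.03, 0.02, 0.08 and 0.11. STARD4, which was not called, is given here because its neighbourhood was seen to be shifted. The part of a regional shift in these values was not tested.

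**Figure D4:**
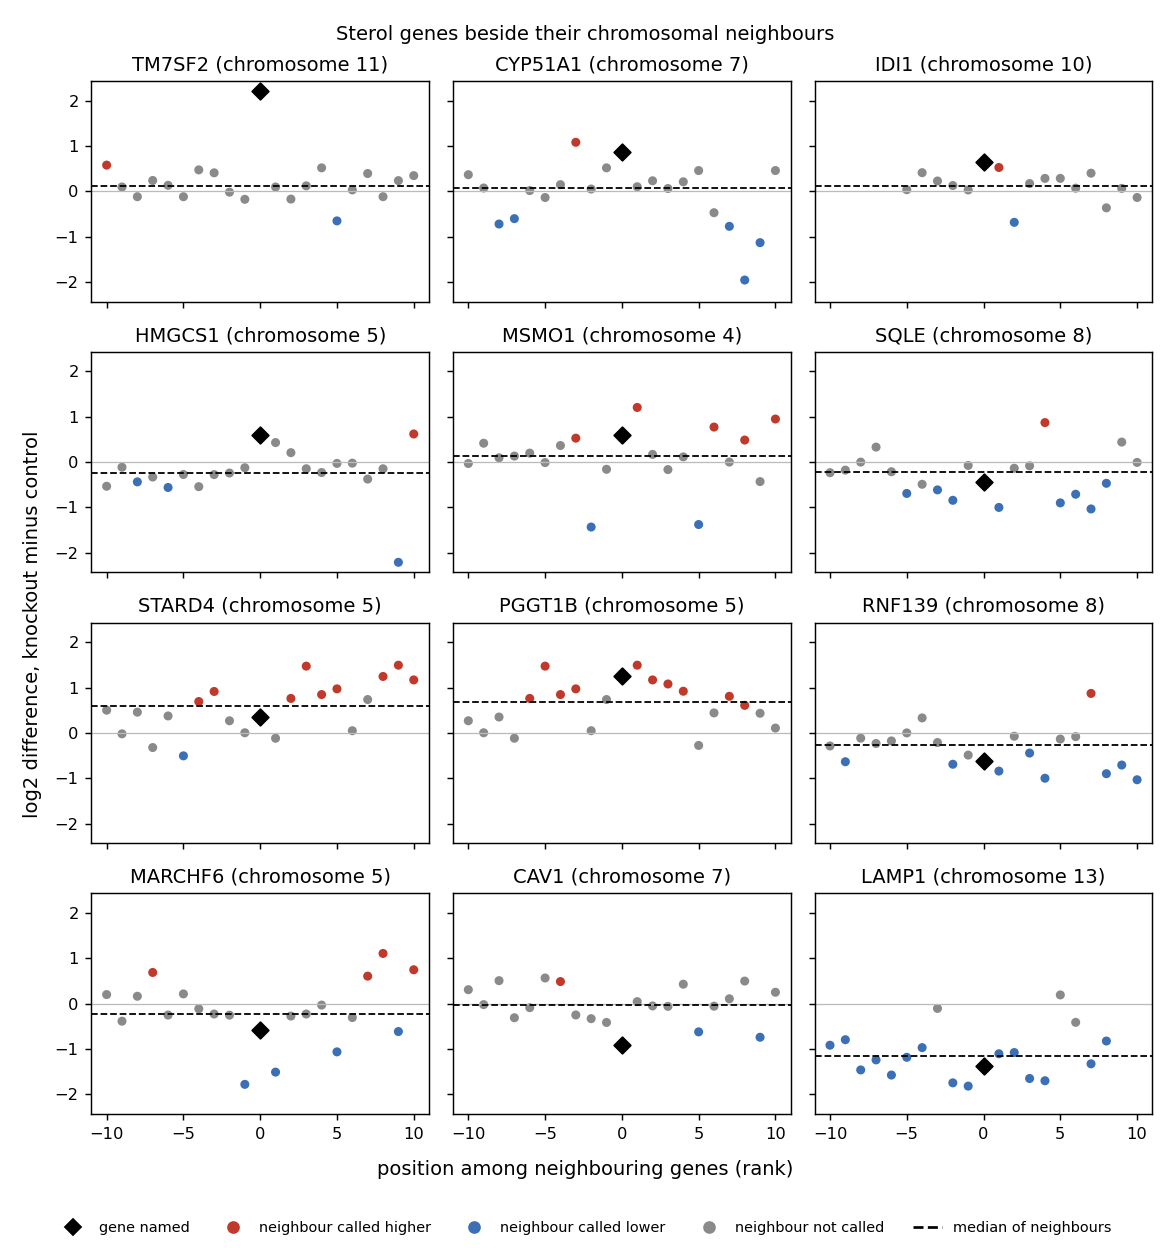
Log2 difference, knockout minus control (y axis), of 12 sterol genes (diamonds) and of up to 10 bright protein-coding neighbours on each side in gene order (x axis, rank), with the neighbours' median as a dashed line. The diamond of TM7SF2 at 2.21 lies above all of its neighbours, as does that of IDI1. Those of SQLE, HMGCS1, CYP51A1 and MSMO1 lie within the range of their neighbours. That of LAMP1 lies among neighbours with a median of -1.14.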

How the data were processed

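Biotin-labelled cDNA from total RNA of 3 control and 3 knockout samples was hybridised to Affymetrix arrays, as the labels' protocols state. Per the submitters' processing notes, the authors made the deposited log2 signal values with RMA and Transcriptome Analysis Console. RMA normalizes between arrays, so changes shared by all genes are removed. Tool versions and the array's genome build are not given in the sources used here. The log2 scale is inferred from values between 1.92 and 19.92. Values above 16 (0.567%) may be stretched, and none of the 25 measured genes reached them.

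Of 134748 probe sets, 35528 had 1 symbol in the platform annotation, 1119 several and 98101 none listed here, and the first kind was used. RefSeq (GRCh38.p14) supplied gene classes, gene order and promoters, and 24364 genes matched it by identifier. The test was limma 3.58.1 in R 4.3.3 (lmFit and eBayes, two-sided, 4 residual and 6.84 prior degrees of freedom), with Benjamini-Hochberg adjustment over 33578 genes, a threshold of 0.05 and 95% intervals from the moderated fit. It was tested on simulated data. Named genes were all 28, the called and the brightest genes of each further list, ESR2, and neighbours of changed genes. The 28 genes and all lists were chosen with earlier results of these data known. Alternatives covered scaling, brightness, moderation, probe sets, genes tested, a minimum fold of 1.2, a replicate block and each array left out. The number of arrays, 3 per group, limits precision, and no batch information was used.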

Additional observations from a re-analysis of the deposited data

How the results depend on the processing

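Over all genes, 2691 were called, beside 1081 when a change had to exceed 1.2-fold. With 1 array left out 1668 to 2266 genes were called (1668 without knockout replicate 2). When all probe sets were tested, 1560 were called, a count of probe sets and not of genes. In that setting 682 genes were called higher and 478 lower, beside 1614 and 1077 in the main fit. Of the 25 measured sterol genes, 5 were called higher, beside 2 with all probe sets tested, 2 with the 1.2-fold minimum and 4 to 5 with 1 array left out. The 1 called lower became 0 in both of those settings, 0 with the replicate block and 0 with any 1 array left out. Of the further genes, 4 were called higher, beside 7 among bright genes only, 7 with trend and robust moderation, 7 among protein-coding genes (CYB5R3, GGPS1 and OSBP were added each time), 2 with all probe sets tested and 2 with the 1.2-fold minimum. The 4 called lower became 2 in each of the last 2 settings (LAMP1 and CAV1), and 3 to 5 with 1 array left out. HMGCS1, IDI1, MSMO1 and SQLE lost their calls when all probe sets were tested (adjusted p = 0.064 to 0.21) and with the 1.2-fold minimum (adjusted p = 0.12 to 0.80). The median over the 25 genes lay between 0.12 and 0.24 in all settings, with 17 to 22 genes above 0. Signs changed only for differences that did not pass in any setting: after repeated quantile normalization LSS was at -0.0067, HSD17B7 at -0.032, EBP at -0.019 and SREBF2 at -0.024. With array medians set equal HSD17B7 was at -0.026 and SREBF2 at -0.0058. With 1 array left out the ranges were -0.11 to 0.012 for FDPS, -0.077 to 0.13 for LSS, -0.10 to 0.11 for HSD17B7, -0.022 to 0.20 for INSIG1, -0.19 to 0.16 for SREBF2 and -0.12 to 0.040 for AUP1. The cause of these changes was not tested. Samples with the same replicate number did not deviate together (r = -0.03 to -0.01 across bright genes), so the numbers were not taken as pairs, and among the named genes the replicate block changed only the SQLE call.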
